A study of Mus musculus with 24 samples.

Results

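Oncofetal genes are genes that the fetal liver uses, that the adult liver largely shuts off, and that liver tumours often use again. The genes examined here in mouse liver were Afp, H19, Igf2, Gpc3, Igf2bp3, Peg3, Lin28b, Golm1, Aldoa and Pkm, 10 of the 37074 gene names on the array. They were read from the non-control probes that carry exactly one of these names, which gave 23 probes, each a 60-base oligonucleotide. A probe was tested where its signal was well above background on every array of at least 1 of the groups, which kept 12 of the 23 probes and 8 of the 10 genes. Igf2 and Lin28b had no tested probe. Not every member was without signal in adult liver here. In untreated wild-type mice, Aldoa lay at percentiles 95.2 to 95.8 of the tested probes of its array by brightness. The brightest Pkm probe lay at percentiles 70.5 to 80.9, Golm1 at 58.2 to 61.7 and Afp at 42.5 to 52.1. These percentiles rank the brightness of probes, which does not compare the amount of 1 gene's RNA with another's. The lists of related genes used below, like the members, were assembled with earlier results of these data known.

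Liver RNA came from 24 female mice of a sv129/C57 background, 8 weeks old per the labels, with 1 one-colour Agilent array per mouse and 6 mice in each of 4 groups. WT control mice were wild type and received water, WT FB1 mice were wild type and were given fumonisin B1 (FB1) daily for 1 month at 10 mg per kg of body weight. The mice without FB1 and with it that lack both LXRα and LXRβ are called KO control and KO FB1. FB1 is a mould toxin that blocks ceramide synthases, and LXRα (Nr1h3) and LXRβ (Nr1h2) are oxysterol receptors that control sterol and lipid genes. The sources used here do not give which exons were deleted or how the toxin was delivered. The comparison of the 4 groups asks whether FB1 moves these genes, whether loss of both receptors does, and whether the FB1 effect depends on genotype.

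In the fetal liver, AFP is a main serum protein beside albumin, the imprinted H19 and Igf2 genes share enhancers and control growth, and LIN28 with the IGF2BP proteins acts on growth-related RNAs. After birth, repressors such as ZHX2 and ZBTB20 hold Afp down, and ZHX2 also acts on H19 and Gpc3. Fetal liver and liver tumours also favour aldolase A and the M-type over the liver-type pyruvate kinase.

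H19 is a long non-coding RNA, so its array probes can be shown whole. They are printed because the largest changes below rest on them and because they differ in brightness. Both lie on the minus strand in mm9, the build of the files, at chr7:149761492-149761551 for A_55_P2903297 and at chr7:149762173-149762232 for A_30_P01026972.
A_55_P2903297: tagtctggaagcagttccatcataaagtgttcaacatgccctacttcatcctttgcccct
A_30_P01026972: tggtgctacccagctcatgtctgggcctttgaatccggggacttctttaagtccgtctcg
The H19 transcript also carries the hairpin of miR-675, which these probes do not measure. Its mature arms, from RefSeq in GRCm38.p6, lie on the minus strand at chr7:142577112-142577133 (5p) and chr7:142577078-142577099 (3p), with the seed (bases 2 to 8) in capitals.
mmu-miR-675-5p: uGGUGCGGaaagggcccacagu
mmu-miR-675-3p: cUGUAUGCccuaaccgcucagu

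Upstream sequences are shown for Afp, Golm1 and Gpc3, the members used as serum or surface markers of liver cancer, whose values are described first. RefSeq's promoter table held 9 of the 10 genes, all but H19. It gave 4 entries for Igf2, 3 for Aldoa and 2 for Pkm, and only the first entry of each gene was searched. Each stretch is the 250 bases before the annotated start in GRCm38.p6, at chr5:90490464-90490713 on the plus strand for Afp, chr13:59675785-59676034 on the minus strand for Golm1 and chrX:52613975-52614224 on the minus strand for Gpc3. Capitals mark matches, on either strand, to the motifs searched. The letters TATAAA stood for a promoter's core box, and the letters CCAAT for the box of that name. For AP-1 they were TGANTCA, for the E-box CACGTG and for TEAD sites GGAATG. A longer motif, given by name, was the LXR direct repeat of spacing 4.
Afp upstream: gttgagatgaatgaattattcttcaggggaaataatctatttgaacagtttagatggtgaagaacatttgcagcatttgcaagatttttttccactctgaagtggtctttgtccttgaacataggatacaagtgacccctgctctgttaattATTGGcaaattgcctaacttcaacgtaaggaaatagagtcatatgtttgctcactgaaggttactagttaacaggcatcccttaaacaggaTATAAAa
Golm1 upstream: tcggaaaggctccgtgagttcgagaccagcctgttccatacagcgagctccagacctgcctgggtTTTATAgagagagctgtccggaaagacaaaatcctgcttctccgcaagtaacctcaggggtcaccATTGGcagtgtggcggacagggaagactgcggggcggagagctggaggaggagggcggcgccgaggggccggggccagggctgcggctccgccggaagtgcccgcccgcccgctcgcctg
Gpc3 upstream: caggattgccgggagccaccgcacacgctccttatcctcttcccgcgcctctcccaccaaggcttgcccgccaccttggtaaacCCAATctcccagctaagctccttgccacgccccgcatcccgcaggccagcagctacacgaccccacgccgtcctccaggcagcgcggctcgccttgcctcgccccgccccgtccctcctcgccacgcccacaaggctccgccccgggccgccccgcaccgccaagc
Afp held the TATAAA letters at -7 to -2 (13.0% of the 27025 promoters of this length) and a CCAAT box on the reverse strand at -98 to -94 (34.5%). Golm1 had reverse-strand matches to the TATAAA and CCAAT letters, and Gpc3 had the CCAAT letters alone. The CCAAT letters were also found for Igf2bp3, Peg3, Lin28b and Pkm, and not in the entry searched for Igf2 or Aldoa. Other annotated starts of Igf2, Aldoa and Pkm were not searched for any motif. The E-box letters (6.05% of promoters) were found for Igf2bp3 and Lin28b, and the TEAD letters (12.6%) for Peg3. In the stretches shown, no 2 matches overlapped. No member's window held the LXR direct repeat or the AP-1 letters, which were in 0.0111% and 6.87% of promoters. GC content was 36.0% for Afp, 65.6% for Golm1 and 71.6% for Gpc3, against a median of 52.0% over all promoters. These matches are descriptions of letters and not binding sites.

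Between 58.7% and 64.5% of an array's non-control spots exceeded background clearly, and the arrays' 75th percentiles of processed signal ran from 490 to 685. All levels below are log2 of the processed signal relative to that percentile of the same array, so they compare mice for 1 probe and not 1 probe with another. Each log2 difference compares group means of 6 mice and carries its standard error after ±. Adjusted p-values are from limma with Benjamini-Hochberg adjustment over 21956 genes, called at 0.05. Within a group, pairs of arrays had correlations over genes from 0.984 to 0.994. The 24 arrays lay on 3 slides, each with 2 mice of every group. The targeted genes were checked first. Nr1h3 lay between 4.71 and 5.06 in the WT mice and between -5.13 and -2.56 in the KO mice, and Nr1h2 between 4.02 and 4.34 in WT and between 0.31 and 0.80 in KO. Alb, the defining hepatocyte transcript, lay between 9.25 and 9.82 in all 24 mice.

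FB1 given to KO mice raised 6 of the 8 tested oncofetal genes and lowered none past the threshold. Afp, H19, Golm1, Gpc3, Aldoa and Pkm rose, by 1.27-fold for Aldoa to 22.2-fold for H19, while Peg3 and Igf2bp3 did not pass the test. Over all genes 16.6% were called higher, 24.7% lower and 41.3% in either direction in that comparison, and the members' median log2 difference was 0.80 against -0.08 over all genes. Those shares of all genes are also the background for every list count with FB1 in KO given below. The KO FB1 and KO control mice did not overlap for 3 members (H19, Golm1 and Aldoa), against 18.4% of all genes.

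FB1 given to WT mice moved no member past the limma threshold, where 2.89% of all genes passed (2.06% higher and 0.824% lower). List counts with FB1 in WT below have these shares as their background. At an unadjusted p under 0.05 there were 2 members, Golm1 and Aldoa, and 18.1% of all genes. Golm1 was called in 3 of the 24 fits that left out 1 mouse, and no member was called under any other setting that kept all slides. The same 2 genes did not overlap between WT FB1 and WT control mice, against 2.32% of all genes.

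Without the toxin, KO liver had more H19 and less Golm1 than WT liver, and the other 6 tested members did not pass the test (15.2% of all genes did, 7.18% higher and 8.03% lower). The groups did not overlap for these 2 genes, against 7.93% of all genes. With the toxin, 5 members were higher in KO than in WT liver (Afp, H19, Golm1, Aldoa and Pkm) and 2 were lower (Peg3 and Igf2bp3), against 14.6% and 18.3% of all genes in those directions and 32.9% in either. The groups did not overlap for 3 members (H19, Aldoa and Pkm), against 15.2% of all genes. The FB1 effect itself was larger in KO than in WT for 4 members (Afp, H19, Golm1 and Aldoa) and smaller past the threshold for none, where 4.49% of all genes were called higher, 4.91% lower and 9.4% in either direction. These comparisons share groups, so their counts are not separate pieces of evidence.

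**Figure D1:**
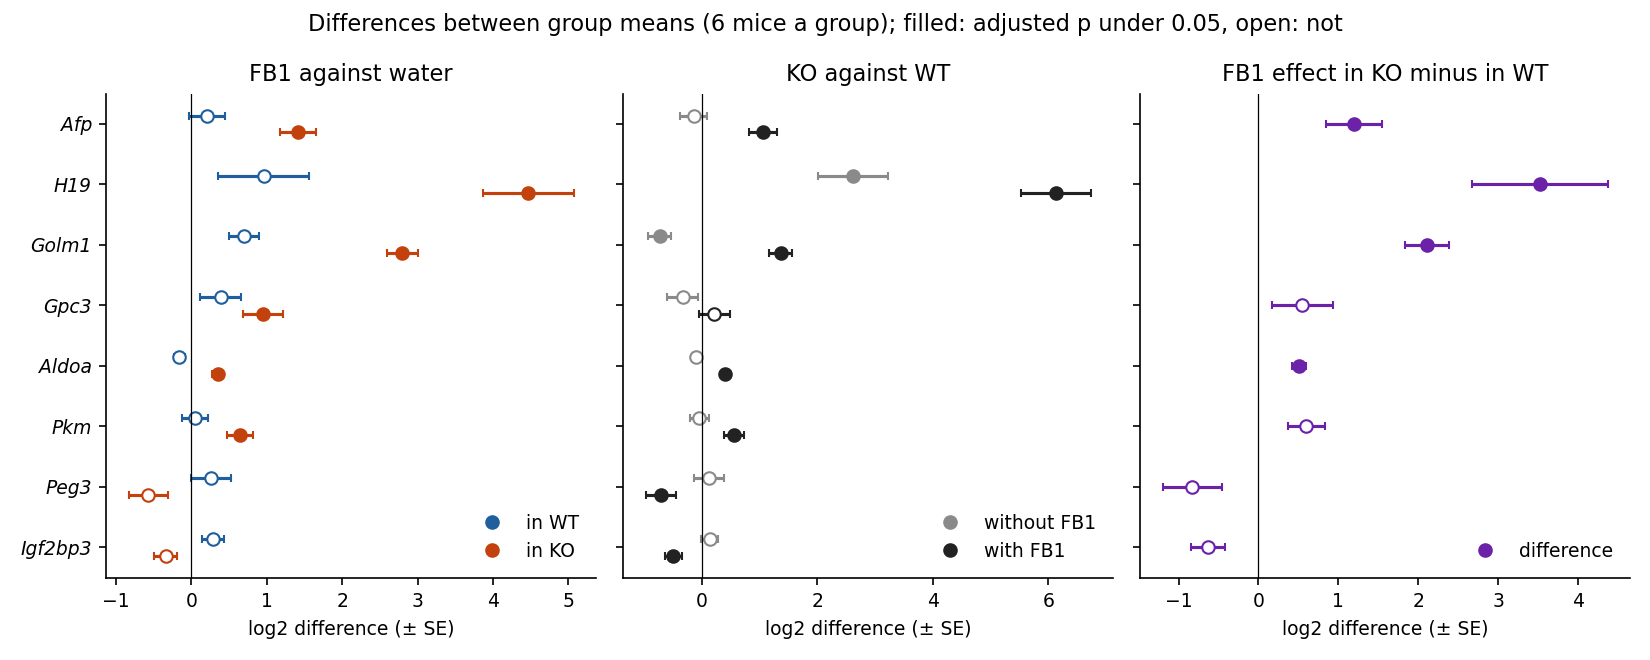
Log2 differences (horizontal axis, ± SE) for the 8 tested oncofetal genes in each of the 5 comparisons, filled where the adjusted p was under 0.05. H19 lies farthest right in each of the KO FB1 comparisons, at 4.47 against KO control and 6.13 against WT FB1, while Peg3 and Igf2bp3 lie left of zero there.

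Afp, the fetal serum albumin-like protein and the classic liver tumour marker, was raised in most but not all KO FB1 mice. Its probe (A_51_P510891, chr5:90937781-90937840, mm9) ran in WT control mice from -1.98 through a median of -1.69 to -1.11. In WT FB1 mice it ran from -1.72 through -1.46 to -1.01, and in KO control mice from -2.22 through -1.79 to -1.16. In the KO FB1 mice the 6 levels were 0.23, -0.96, -0.08, -0.17, -1.46 and 0.26. Thus 5 of the 6 KO FB1 mice lay above every mouse of the other groups, and replicate 5 lay inside the range of KO control.

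The rise of Afp with FB1 in KO was 1.41 ± 0.24, or 2.65-fold (adjusted p = 9.71e-05), against 0.21 ± 0.24 in WT (adjusted p = 0.69). KO exceeded WT by 1.06 ± 0.24 with FB1 (adjusted p = 0.00181), and without it the difference was -0.14 ± 0.24 (adjusted p = 0.782). The difference between the FB1 effects was 1.2 ± 0.35 (adjusted p = 0.0306). That call was lost on leaving out any 1 of 5 mice (KO control replicate 2, KO FB1 replicates 1 and 6, WT control replicate 1 and WT FB1 replicate 6), with adjusted p from 0.0544 to 0.0605, and with no filter on dim probes (adjusted p = 0.0615). Slides differed: FB1 in KO gave 0.23 on slide 1, which held replicates 2 and 5 of KO FB1, 1.86 on slide 2 and 2.14 on slide 3.

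Golm1 encodes a Golgi membrane protein (GP73) that is shed into serum in liver disease, and it separated the groups more cleanly than Afp. Levels (A_51_P171200, chr13:59736466-59736525, mm9) ran from -0.49 through -0.28 to -0.15 in WT control mice and from -0.08 through 0.30 to 1.41 in WT FB1 mice. They ran from -1.37 through -1.01 to -0.78 in KO control and from 1.15 through 1.90 to 2.23 in KO FB1. KO control mice were the lowest of the 4 groups and overlapped none of the others, and KO FB1 mice overlapped only WT FB1, through the single WT FB1 mouse at 1.41.

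FB1 raised Golm1 in KO by 2.80 ± 0.20, or 6.97-fold (adjusted p = 3.74e-09). On the 3 slides the rise was 2.60, 2.61 and 3.20, each past the threshold. In WT the difference was 0.70 ± 0.20 (adjusted p = 0.0613), which passed on leaving out KO FB1 replicate 5, WT FB1 replicate 4 or WT FB1 replicate 6 (adjusted p = 0.0394 to 0.0441). Without WT FB1 replicate 1, the mouse at 1.41, it was 0.49 ± 0.16 (adjusted p = 0.139). Golm1 was lower in KO than in WT without FB1, by -0.73 ± 0.20 (adjusted p = 0.0135), and higher with FB1, by 1.37 ± 0.20 (adjusted p = 1.2e-05). The FB1 effect was larger in KO than in WT by 2.11 ± 0.28 (adjusted p = 0.000213).

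Gpc3, a cell-surface heparan sulfate proteoglycan used to diagnose liver cancer, had the smallest FB1 difference of these 3 genes in KO. Its tested probe (A_55_P2908274, chrX:49625627-49625686, mm9) ran from -3.36 through -3.13 to -2.47 in WT control and from -3.42 through -2.50 to -2.05 in WT FB1. It ran from -4.34 through -3.48 to -2.39 in KO control and from -2.77 through -2.44 to -1.86 in KO FB1, and all 4 ranges overlapped. FB1 raised it in KO by 0.95 ± 0.27, or 1.93-fold (adjusted p = 0.00756), a value that normexp background correction put at 0.42 (adjusted p = 0.0171). The difference was 0.39 ± 0.27 in WT (adjusted p = 0.465), and the FB1 effects were not shown to differ (0.55 ± 0.38, adjusted p = 0.398). KO and WT did not differ past the threshold without FB1 (-0.33 ± 0.27) or with it (0.22 ± 0.27). The other Gpc3 probe was well above background on 1 array, in KO FB1.

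Among 13 other tested glypican, syndecan and heparan sulfate genes, FB1 in KO raised 3 and lowered 5, with a median of -0.23. Gpc1, a widely expressed glypican, rose by 1.48 ± 0.21 (adjusted p = 8.87e-06), and its FB1 effect was larger in KO than in WT (1.15 ± 0.29, adjusted p = 0.0166). The syndecans Sdc2 (-0.61 ± 0.10) and Sdc4 (-0.81 ± 0.19) fell, and Sdc3 rose by 0.60 ± 0.15. Gpc3 was therefore 1 of 2 glypicans that rose there, while Gpc4 fell by 0.24 on the log2 scale. In WT none of the 13 was called.

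**Figure D2:**
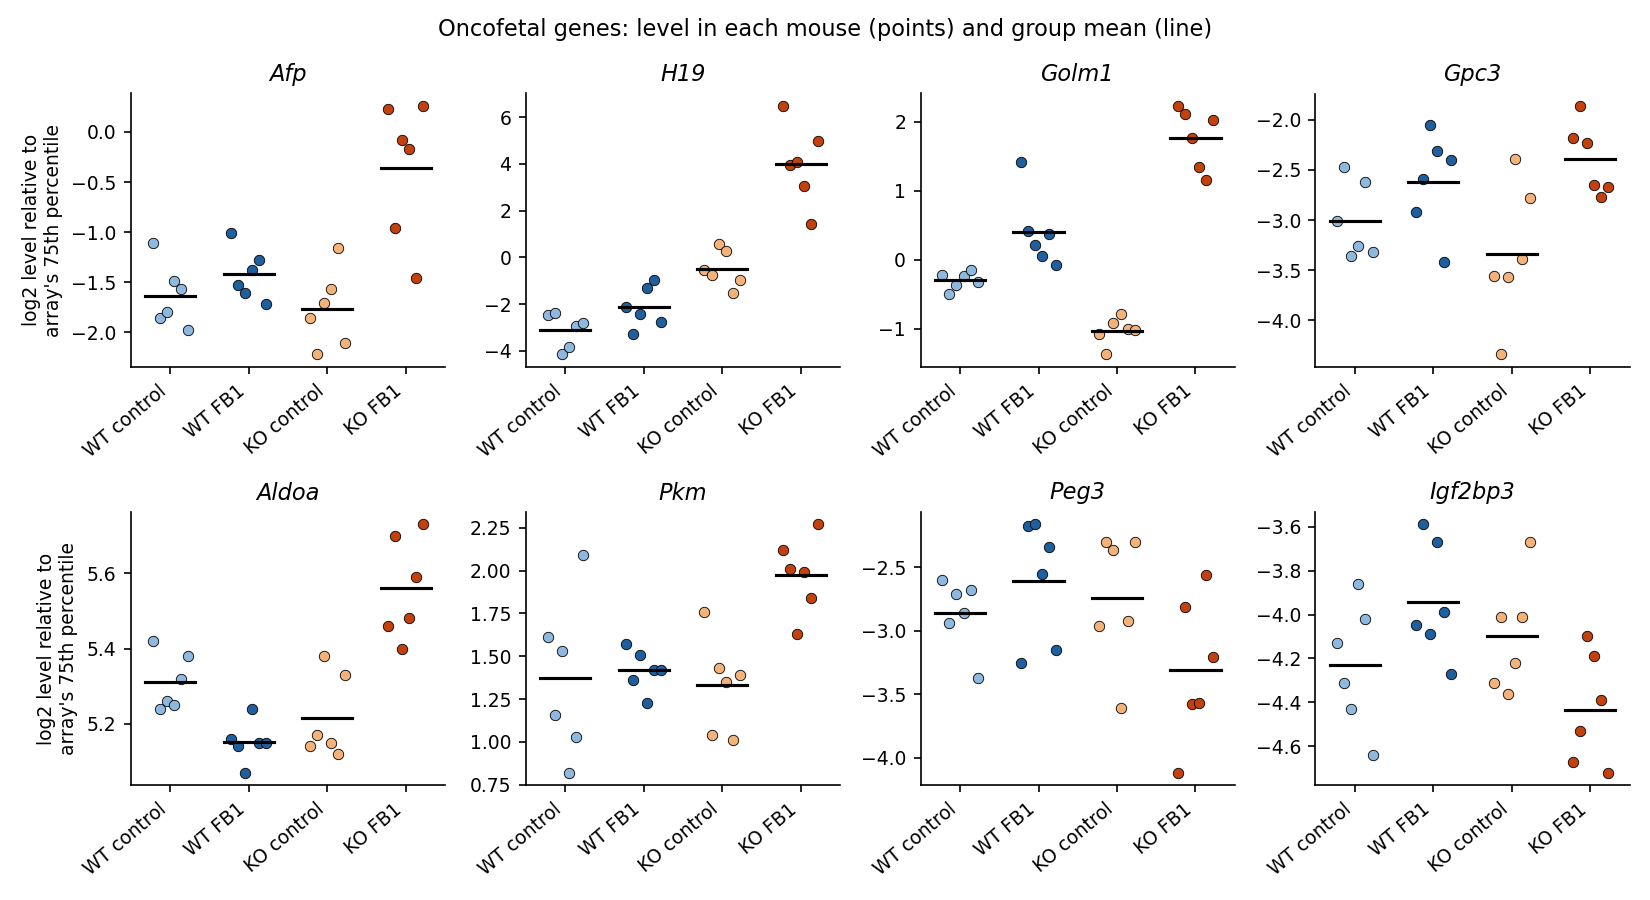
Level of each tested oncofetal gene in every mouse (points, log2 relative to the array's 75th percentile, own scale per gene) with the group mean as a line. H19 and Golm1 in the 6 KO FB1 mice lie above all KO control mice, whereas 1 KO FB1 mouse has an Afp level of -1.46, within the KO control range.

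H19, the growth-restraining non-coding RNA expressed from the maternal allele, had the largest change of the members. With A_55_P2903297, the WT control mice ran from -4.15 through -2.88 to -2.38 and the WT FB1 mice from -3.27 through -2.27 to -0.99. KO control mice ran from -1.51 through -0.64 to 0.57. The 6 KO FB1 mice were at 6.48, 3.93, 4.09, 3.05, 1.41 and 4.98. Every KO FB1 mouse was above every KO control mouse, and every KO control mouse was above every WT control mouse, while the 2 WT groups overlapped.

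H19 rose with FB1 in KO by 4.47 ± 0.60, or 22.2-fold (adjusted p = 5.19e-06), the rank 6 rise among all 21956 genes. In WT the difference was 0.96 ± 0.60 (adjusted p = 0.415). H19 was higher in KO than in WT without FB1 by 2.62 ± 0.60, or 6.13-fold (adjusted p = 0.00348), and with FB1 by 6.13 ± 0.60, or 70.1-fold (adjusted p = 3.95e-08). The FB1 effect was larger in KO by 3.52 ± 0.85 (adjusted p = 0.0119). All 4 calls held on leaving out any 1 mouse and under each processing alternative on all slides. The FB1 effect in KO was 3.14, 4.32 and 5.96 on slides 1, 2 and 3, and slide 1 alone, which held the mouse at 1.41, did not pass (adjusted p = 0.102).

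The second H19 probe printed above, A_30_P01026972, was dimmer. It was well above background on 0 arrays of WT control, 1 of WT FB1, 5 of KO control and 6 of KO FB1. It therefore passed the filter through the KO FB1 mice, where it was brightest, and its difference of 4.56 ± 0.65 with FB1 in KO is given as a description. Since no WT control array was above background, KO control exceeded WT control by at least 2.35-fold, taking for each dim array the higher of its own signal and its lowest signal well above background.

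Igf2, the fetal growth factor whose promoters share enhancers with H19, stayed near the detection limit. Its brighter probe (A_51_P516833, chr7:149837115-149837174, mm9) was well above background on 2 arrays of WT control, 0 of WT FB1, 2 of KO control and 2 of KO FB1, and the other probe on none. The levels of the brighter probe ran from -6.52 to -5.72, -7.76 to -6.44, -6.43 to -5.44 and -6.47 to -4.48 in the groups in that order, where the lowest signal well above background lay between -6.18 and -5.25. KO FB1 mice overlapped KO control mice, and the array can place only a bound on Igf2 at these levels. Of the 17 gene names tested within 400 kb of H19, a window chosen after values were seen, Mrpl23 and Nctc1 were the nearest named ones with a tested probe and passed in none of the 5 comparisons. With FB1 in KO, Mrpl23 differed by 0.02 ± 0.06 and Nctc1 by -0.11 ± 0.10. Farther off, Lsp1, a leukocyte protein, rose by 1.02 ± 0.15 (adjusted p = 1.56e-05) and Tnni2, a troponin, by 1.07 ± 0.16 (adjusted p = 2.31e-05).

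**Figure D3:**
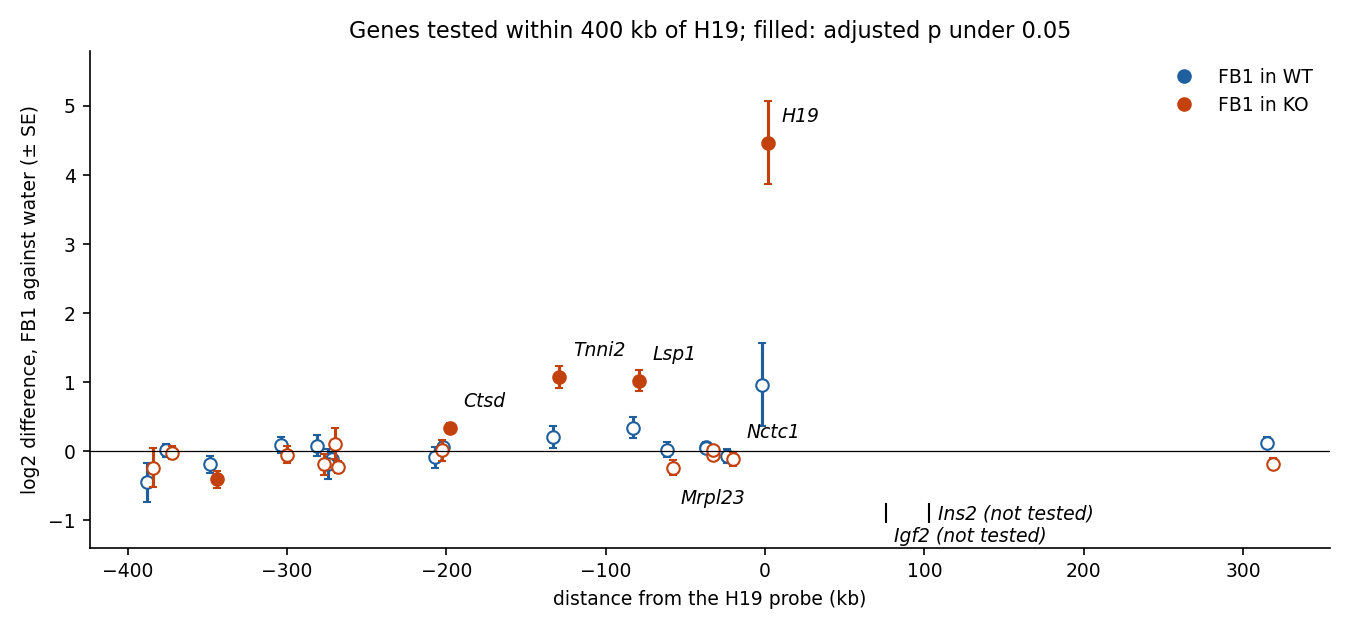
Log2 difference between FB1 and water (± SE) for each gene tested within 400 kb of the H19 probe, by distance in kb, in WT (blue) and KO (orange), filled where the adjusted p was under 0.05. H19 stands at 4.47 in KO, its nearest named tested neighbour Nctc1 at -0.11, and Igf2 and Ins2 were too dim to test.

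Peg3, a paternally expressed zinc finger gene, passed the test in 1 of the 5 comparisons. Its brighter tested probe (A_65_P05169, chr7:6657078-6657137, mm9) ran from -3.37 through -2.79 to -2.60 in WT control and from -3.25 through -2.44 to -2.16 in WT FB1. KO control ran from -3.61 through -2.64 to -2.30 and KO FB1 from -4.12 through -3.39 to -2.56. With FB1 it was lower in KO than in WT by 0.71 on the log2 scale (-0.71 ± 0.26, 1.63-fold, adjusted p = 0.0409), though the ranges overlapped. The call was lost on leaving out any 1 of 8 of the 12 mice compared (KO FB1 replicates 1, 3, 4 and 6 and WT FB1 replicates 2 to 5, adjusted p = 0.0565 to 0.119) and under 4 of 10 other settings that kept all slides (normexp, no filter on dim probes, the authors' values, and these groups fitted alone; adjusted p = 0.0546 to 0.124). FB1 in KO gave -0.57 ± 0.26 (adjusted p = 0.0856), which passed without KO control replicate 4 (0.023) or KO FB1 replicate 5 (0.0316), and in WT 0.26 ± 0.26 (adjusted p = 0.634). The second tested Peg3 probe gave -0.93 ± 0.38 between KO and WT with FB1 (adjusted p over probes = 0.0688), and the signal of the third probe never cleared background. Under the authors' values that second probe stood for Peg3, since the brighter probe had only 15 values there, so that setting also changed the probe.

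Of 17 other tested imprinted growth genes, FB1 raised 4 and lowered 2 in KO and raised 3 in WT. Dlk1, a fetal surface protein of progenitor cells, rose by 4.79 ± 0.43 in KO (adjusted p = 4.42e-08), a size near that of H19, from a mean of -4.91 to -0.11, with 5 KO control arrays and all 6 KO FB1 arrays well above background. Airn, an imprinted antisense RNA at Igf2r, rose by 2.04 ± 0.19 in KO and by 0.80 ± 0.19 in WT. Igf2r itself, the receptor that clears IGF2, did not pass in KO (0.19 ± 0.09, adjusted p = 0.0884). Meg3 and Mirg, maternally expressed RNAs of the Dlk1 region, rose with FB1 in WT by 2.0 ± 0.36 and 2.02 ± 0.30. Without FB1 they were 5.14 ± 0.36 and 4.07 ± 0.30 higher in KO than in WT, so that these and H19 were among the imprinted RNAs higher in KO without the toxin. Usp29, which shares its promoter region with Peg3, was lower in KO than in WT with FB1 by 0.70 on the log2 scale (-0.70 ± 0.26, adjusted p = 0.0414), beside the -0.71 of Peg3.

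Of 16 genes of the IGF axis, 5 rose and 4 fell with FB1 in KO. Igfbp6, which prefers IGF2, rose by 1.44 ± 0.33, while Igfbp4 fell by 0.41 on the log2 scale. Htra1 rose by 0.83 ± 0.22. Pappa, a protease that frees IGF from its binding proteins, was well above background on 0 KO control and 6 KO FB1 arrays and so was tested through the group where it was high. Its level was at least 1.98-fold higher in KO FB1. In WT none of the 16 was called.

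Lin28b, the fetal repressor of let-7 maturation, stayed at or near the detection limit. Of its 4 probes, 3 were well above background on at most 2 of 24 arrays. The fourth (A_55_P2781208, chr10:45206729-45206788, mm9) was above it on 5 arrays of WT control, 3 of WT FB1, 3 of KO control and 4 of KO FB1, with group medians of -5.28, -5.14, -5.68 and -5.54. The ranges of the 4 groups overlapped.

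Igf2bp3, an RNA-binding protein of fetal tissue and tumours, had signal on 1 of its 3 probes, and the other 2 never cleared background. Whether the bright probe reads Igf2bp3 alone was not tested, and each Igf2bp3 value here is that probe's. The detected probe (A_65_P17219, chr6:49037149-49037208, mm9) ran from -4.64 through -4.22 to -3.86 in WT control and from -4.27 through -4.02 to -3.59 in WT FB1. It ran from -4.36 through -4.12 to -3.67 in KO control and from -4.72 through -4.46 to -4.10 in KO FB1. With FB1 it was lower in KO than in WT (-0.49 ± 0.15, 1.41-fold, adjusted p = 0.0128), and normexp background correction reduced this to -0.17 (adjusted p = 0.0505). With FB1 in KO the difference was -0.34 ± 0.15 (adjusted p = 0.0704), past the threshold with quantile normalization (-0.42, adjusted p = 0.0342) and without replicate 3 of KO control (0.0469) or of KO FB1 (0.0333). With FB1 in WT the difference was 0.29 ± 0.15 (adjusted p = 0.302). The FB1 effects differed by -0.63 ± 0.21 (adjusted p = 0.0594), and passed with slide as a block (0.0461) and without KO control or KO FB1 replicate 3, WT control replicate 4 or WT FB1 replicate 6 (0.0294 to 0.0487).

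Among 22 other tested genes of the LIN28, let-7 and IGF2BP pathway, FB1 raised 8 and lowered 3 in KO and called none in WT. Myc, a let-7 target and growth regulator, rose by 1.44 ± 0.31 (adjusted p = 0.000715). The let-7 targets Nras and Cdk6 rose by 0.38 ± 0.07 and 0.53 ± 0.10, and Hmga1 by 0.57 ± 0.13. Igf2bp2, the family member that adult tissue keeps, rose by 0.61 ± 0.19, while Igf2bp3 did not pass, and Lin28a fell by 0.39 on the log2 scale. The pathway's median was 0.13 in KO.

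Aldoa, the muscle and fetal aldolase, moved little in size but with a narrow spread. Its probe (A_55_P2007196, chr7:133938816-133938875, mm9) ran from 5.24 through 5.29 to 5.42 in WT control and from 5.07 through 5.15 to 5.24 in WT FB1. It ran from 5.12 through 5.16 to 5.38 in KO control and from 5.40 through 5.54 to 5.73 in KO FB1, so that KO FB1 mice lay above both KO control and WT FB1 mice. FB1 raised it in KO by 0.35 ± 0.07, or 1.27-fold (adjusted p = 0.00024), with 0.60 from the authors' values and 0.53 after normexp. In WT the difference was -0.16 ± 0.07 (adjusted p = 0.197). KO exceeded WT with FB1 by 0.41 ± 0.07 (adjusted p = 4.33e-05), and the FB1 effects differed by 0.51 ± 0.09 (adjusted p = 0.00229). On the slides the effect in KO was 0.40, 0.20 and 0.44, none past the threshold alone.

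Pkm, the gene of the M-type pyruvate kinase, rose with FB1 in KO on all 3 tested probes. Its isozymes were not told apart. The brightest (A_55_P2068812, chr9:59527118-59527177, mm9) ran from 0.82 through 1.34 to 2.09 in WT control and from 1.23 through 1.42 to 1.57 in WT FB1. It ran from 1.01 through 1.37 to 1.76 in KO control and from 1.63 through 2.0 to 2.27 in KO FB1. The KO FB1 mice lay above all WT FB1 mice, and the WT control mice were the most spread. The rise in KO was 0.65 ± 0.17, or 1.57-fold (adjusted p = 0.00328), and 0.67 ± 0.13 and 0.69 ± 0.20 on the other 2 probes. By slide it was 0.71, 0.24 and 1.0. In WT the difference was 0.05 ± 0.17 (adjusted p = 0.917). KO exceeded WT with FB1 by 0.56 ± 0.17 (adjusted p = 0.0117). The FB1 effects differed by 0.60 ± 0.23 (adjusted p = 0.106), which passed with the mean of the probes (0.71, adjusted p = 0.0338), on probe A_55_P2761004 alone (0.66 ± 0.18, adjusted p over probes = 0.0288) and without WT control replicate 4 (0.71, adjusted p = 0.0381). The fourth Pkm probe was well above background on 0 arrays of WT control, 3 of WT FB1, 1 of KO control and 3 of KO FB1.

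The adult counterparts did not mirror these rises evenly. Alb, the adult counterpart of Afp, passed in none of the 5 comparisons, with -0.04 ± 0.08 for FB1 in KO. Pklr, the liver pyruvate kinase, did not pass with FB1 in KO (-0.37 ± 0.21, adjusted p = 0.16). It was instead lower in KO than in WT, by -1.03 ± 0.21 without FB1 (adjusted p = 0.00114) and -0.89 ± 0.21 with it (adjusted p = 0.00212), while Pkm differed by -0.04 ± 0.17 without FB1. Khk, ketohexokinase, fell with FB1 in KO by 0.70 on the log2 scale (-0.70 ± 0.14, adjusted p = 0.000363). Of the 8 genes of the albumin and adult isozyme list, 4 fell and none rose there.

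**Figure D4:**
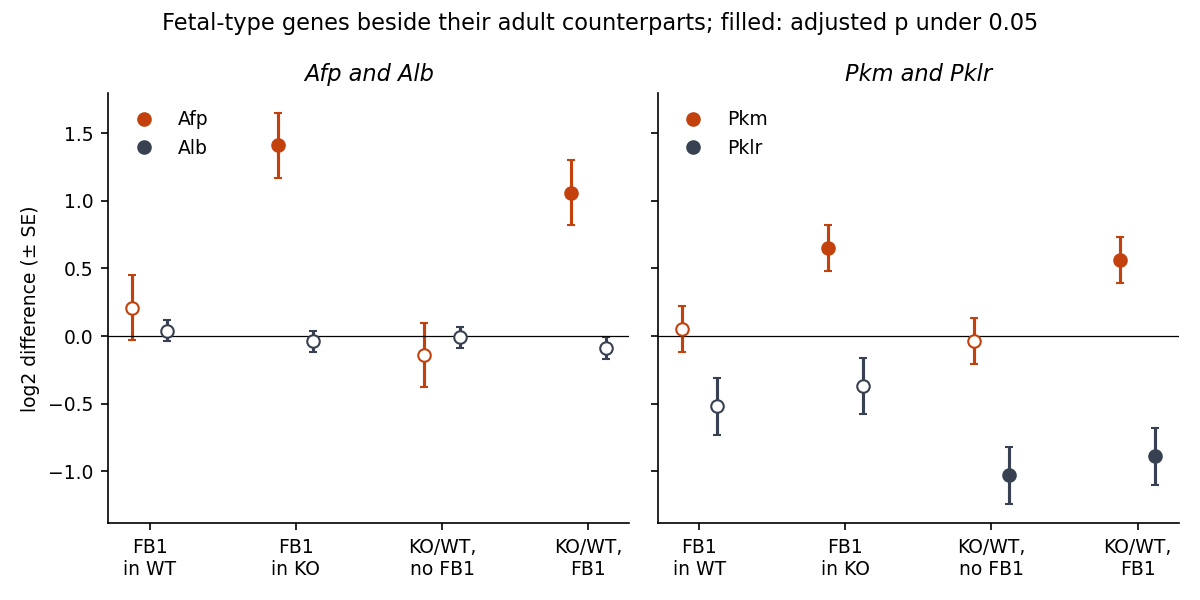
Log2 differences (vertical axis, ± SE) of Afp and Pkm (orange) and of their adult liver counterparts Alb and Pklr (grey) in 4 comparisons, filled where the adjusted p was under 0.05. With FB1 in KO, Afp and Pkm stand at 1.41 and 0.65, and Alb and Pklr at -0.04 and -0.37.

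With FB1 in KO, 5 of 27 genes of the glycolysis list rose, Aldoa and Pkm among them, and 7 fell, with a median of -0.07. These shares are near those of all genes, 16.6% higher and 24.7% lower. Pfkp, the platelet-type phosphofructokinase, rose by 0.87 ± 0.10 (adjusted p = 1.61e-06) while Pfkl, the liver type, fell by 0.38 on the log2 scale. Aldoc, the brain-type aldolase, fell by 0.93 on the log2 scale (-0.93 ± 0.12, adjusted p = 3.37e-06), opposite to Aldoa. The FB1 effect was larger in KO for Pfkp (0.78 ± 0.15) and smaller for Aldoc (-0.59 ± 0.17) and Pfkl (-0.31 ± 0.09). None of the 27 was called with FB1 in WT.

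The known regulators of Afp gave no call for its repressors. Zhx2 differed by 0.19 ± 0.17 with FB1 in KO (adjusted p = 0.388) and Zbtb20 by 0.18 ± 0.08 (adjusted p = 0.0651), and neither passed in any of the 5 comparisons. The Zhx2 probe was dim, with levels from -5.09 to -3.99, where the lowest signal well above background lay between -6.18 and -5.25. It was well above background on 5 arrays of WT FB1 and 6 of each other group. Of 26 regulators of fetal liver genes, 4 rose and 10 fell with FB1 in KO, against 16.6% and 24.7% of all genes. None was called in WT, against 2.89% of all genes. Nfib, a nuclear factor I protein, fell by 0.48 on the log2 scale (-0.48 ± 0.08, adjusted p = 6.06e-05). Sox9, a progenitor and duct factor, rose by 1.89 ± 0.27 (adjusted p = 1.2e-05) and Sox4 by 1.36 ± 0.23. Nr5a2, an activator of the Afp promoter, was lower in KO than in WT by -1.44 ± 0.07 without FB1 (adjusted p = 9.19e-13) and by -1.55 ± 0.07 with it. Afp was higher in KO with FB1 and not shown to differ without it.

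Other liver tumour and progenitor markers were examined beside the members. Of 23 tested, 10 rose and 1 fell with FB1 in KO, with a median of 0.56, and 2 rose in WT, with a median of 0.27. Ly6d rose by 5.75 ± 0.61 (adjusted p = 3.42e-07), Tff3, a secreted trefoil peptide well above background on 3 KO control arrays, by 4.03 ± 0.49 (adjusted p = 1.83e-06), and Ddr1, a collagen receptor kinase, by 2.19 ± 0.20 (adjusted p = 4.42e-08). The FB1 effect was larger in KO than in WT for each of these, by 4.19 ± 0.86, 2.67 ± 0.70 and 1.49 ± 0.28. Birc5 (survivin), a protein of dividing cells, rose in both genotypes, by 2.19 ± 0.33 in WT and 2.59 ± 0.33 in KO.

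Markers of several cell types moved in the KO FB1 mice in which the oncofetal genes rose, and in bulk liver RNA fewer cells of a type and less RNA per cell cannot be told apart. For recruited monocytes and macrophages, 11 of 14 markers rose with FB1 in KO and 6 in WT, and the log2 of their summed level ran from 7.02 to 7.35 in KO FB1 against 5.71 to 6.24 in KO control. For stellate cells and fibroblasts, 10 of 14 rose in KO and 4 in WT, and the sums ran from 7.15 to 7.42 against 6.59 to 6.86. For hepatocytes, 9 of 15 fell in KO, with sums from 11.34 to 11.91 against 11.72 to 12.01. Sinusoidal markers fell for 8 of 12, and cholangiocyte markers rose for 2 of 11 tested, with Ggt1 not tested. Proliferation markers rose for 15 of 16 in both genotypes, with sums from 5.33 to 6.28 in KO FB1, 3.76 to 4.32 in KO control, 4.59 to 5.57 in WT FB1 and 3.58 to 4.46 in WT control. Between KO and WT without FB1, where H19 was higher and Golm1 lower in KO, 9 of 10 resident macrophage markers were lower in KO, with sums from 4.2 to 4.92 against 5.92 to 7.5. In the pancreas and adipose list 7 of 12 markers were too dim to test (Prss2, Cpa1, Pnlip, Ins2, Amy2b, Adipoq and Retn). The part of these markers in the results on the members was not tested.

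Across the 24 mice, as deviations from group means, 16 of the 28 pairs of members correlated positively. The single pair under 0.05 after Benjamini-Hochberg adjustment was Igf2bp3 with Pkm, which ran in opposite directions (Pearson's r = -0.67, permutation p = 0.00069, adjusted 0.019, and Spearman's rho = -0.65, permutation p = 0.0018, adjusted 0.05). It was -0.70 without the 2 mice farthest from the median and -0.87 within slides. Afp with Golm1 gave r = 0.54 (permutation p = 0.013, adjusted 0.19; rho = 0.55, permutation p = 0.014, adjusted 0.20), with 0.57 without the 2 farthest mice and 0.65 within slides. Afp with H19 gave r = 0.55 (permutation p = 0.041, adjusted 0.29; rho = 0.38, permutation p = 0.097, adjusted 0.45), which dropped to 0.37 without the 2 farthest mice and was 0.38 within slides.

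Over the same deviations in 24 mice and 19592 genes, the genes most like each member were as follows. For H19 they were Wfdc3 (r = 0.82), Gm6756 (0.77) and Mre11a (0.76), and for Golm1 Arhgef25 (0.83), Ezh2 (0.81) and Pck2 (0.80). The closest named genes were 1700016H13Rik (0.85) and Gstm3 (0.81) for Afp and Myl7 (0.84), Kcnd3 (0.83) and Msln (0.81) for Gpc3. Pkm was most like Ccdc88b (0.89), Tbxas1 (0.89) and Cyba (0.88), and Igf2bp3 most like Azgp1 (0.85), Proc (0.84) and Olfr1444 (0.84). For Aldoa the named ones were Bend3 (0.79) and Dusp3 (0.77), and for Peg3 they were Ift52 (0.79), Tmtc2 (0.75) and BC125002 (0.74). No other member was among the 3 genes most like any member.

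**Figure D5:**
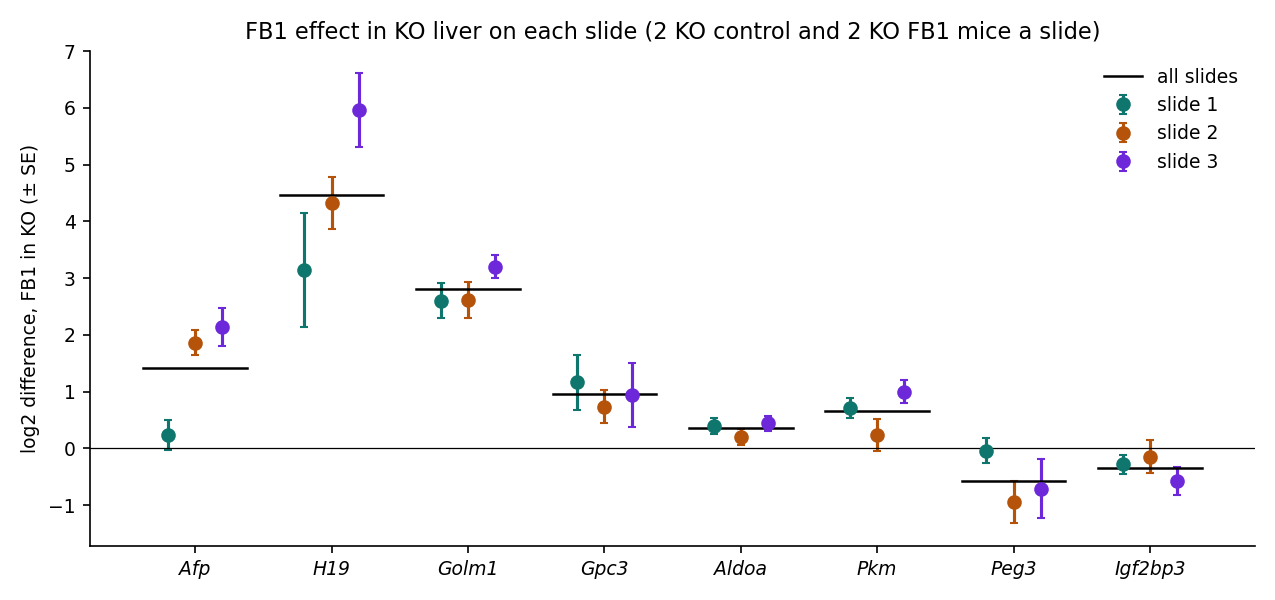
Log2 difference between KO FB1 and KO control mice (± SE) on each of the 3 slides, 2 mice of each group per slide, with the value over all slides as a line. Golm1 lies between 2.60 and 3.20 on all slides, whereas Afp is 0.23 on slide 1 and 1.86 and 2.14 on the other 2.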

How the data were processed

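The arrays were 1-colour Cy3 hybridisations of liver total RNA, per the labels. Each deposited scanner file gives spot intensity, and its processed intensity had been background-subtracted and detrended by Agilent Feature Extraction 10.10.1.1, per the file headers. A deposited series table holds the authors' log2 values for 33417 probes, with the filter behind it not given in the sources used here. Limma is named in the submitters' processing notes. All columns of that table had a median of about 7.86, none was centred on 0, and 24 of 24 matched their own array.

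From the scanner files, the processed intensity was put on the log2 scale and centred on the array's 75th percentile, taken over 59305 non-control spots. Outlier spots (64 to 121 per array) were set to missing, and repeated spots were averaged. The test took 33417 probes with 4 or more values per group that were clearly over background throughout 1 or more groups, outlier spots aside. The authors' table holds the same number of probes but not the same set, and 32012 probes were in both. A gene, named as in the files, was represented by the brightest of its tested probes (21956 genes). The 4 group means of 24 arrays were fitted in 1 model (limma 3.58.1, R 4.3.3, the data.table package at 1.17.8), with lmFit and eBayes and Benjamini-Hochberg adjustment. Correlations used 1e+05 permutations. Figures used Python 3.11.15 and matplotlib 3.10.9. Precision is limited by the number of arrays.

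The members, the 8 lists of related genes, the 11 marker lists and the tests were chosen with earlier results of these data known. Named genes were all members with every probe, Nr1h3, Nr1h2, Zhx2, Zbtb20, Alb and Pklr, up to 4 called genes of each list and comparison with the smallest p, and the 3 genes most like each member. The text leaves out part of what this rule allows, some genes are not reported here, and Gpc4, Igf2r, Usp29, Igf2bp2, Lin28a and the H19 neighbours were named outside it after their values were seen. Scripts were tested on simulated data. Alternatives were normexp with an offset of 50, quantile normalization, the deposited log2 values, a stricter filter on dim probes and none, keeping outlier spots, averaging a gene's probes, a block for slide or for replicate number, the groups of a comparison alone, each slide alone and leaving out each array. Replicate numbers were checked for pairing: of 36 pairs of arrays with the same number, 5 correlated above 0.1, so the numbers were not taken to pair mice. Markers of erythroid cells (2 of 9 fell with FB1 in KO), T, NK and B cells (3 of 9 rose, 1 fell), neutrophils (1 of 10 rose, 1 fell) and resident macrophages (3 of 10 rose, 2 fell) were also examined.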

Additional observations from a re-analysis of the deposited data

Results flagged for a closer look

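Golm1 in WT FB1 replicate 1 lay far from the other mice of its group, at a log2 level of 1.41 against 0.41 for the next highest, a gap of 0.67 of the group's range. Of 32 group and gene combinations examined this was the single one so flagged, and chance alone flags about 1 in 20.

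The FB1 effect differed between genotypes, by the test of the difference itself, for 4 members: it was larger in KO than in WT for Afp by 1.2, for Aldoa by 0.51, for Golm1 by 2.11 and for H19 by 3.52 on the log2 scale. For Aldoa the 2 effects had opposite signs, 0.35 in KO and -0.16 in WT, of which the second did not pass the test.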

How the results depend on the processing

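Each setting was compared with the result as reported, over the 5 comparisons. No member's called difference changed sign on all slides together under any alternative. The FB1 effects on Afp differed by -0.04 on slide 1 alone against 1.2 over all slides, a reversal. On single slides, which hold 2 mice of each group, members called with FB1 in KO numbered 1, 3 and 4 on slides 1, 2 and 3 (6 over all slides). Between KO and WT with FB1 they numbered 0, 2 and 4 on slides 1, 2 and 3 (7 over all), without FB1 0, 1 and 0 (2 over all), and for the difference of the FB1 effects 0, 0 and 3 (4 over all). Genes called on slides 1, 2 and 3 numbered 1978, 304 and 4895 with FB1 in KO (9061 over all slides), 7, 32 and 0 with FB1 in WT (634), 1613, 709 and 4143 between KO and WT with FB1 (7221), 721, 423 and 882 without it (3340), and 6, 3 and 1087 for the difference of the FB1 effects (2064). Fewer arrays enter each such fit. With the WT groups fitted alone, 377 genes were called with FB1 in WT, and with no filter on dim probes 1261 for the difference of the FB1 effects. Of the calls for that difference, 47.8% were higher, against 58.6% with the authors' values. Between KO and WT with FB1 the share was 44.3%, against 52.6% with the authors' values, 52.1% after normexp and 50.6% after quantile normalization, so the majority of calls turned from lower to higher. With FB1 in KO it was 40.1%, against 49.0% with the authors' values.

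Leaving out each array in turn gave 6 to 7 members with FB1 in KO, 0 to 1 with FB1 in WT, 6 to 7 between KO and WT with FB1, 2 to 2 without it and 3 to 6 for the difference of the FB1 effects. Genes called ranged from 7946 to 9751, 384 to 834, 6166 to 7822, 2810 to 3516 and 1489 to 3033 in that order. The lowest count for FB1 in WT came without WT FB1 replicate 1, and the lowest for the difference without KO FB1 replicate 1. With the replicate number as a block, members called were 6, 0, 7, 2 and 4 in that order, and genes called 8874, 548, 6966, 3169 and 1901, so the block changed no member's call. Of the arrays, 3 of 24 matched best an array of their own number.

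Of the member results under other settings on all slides, 378 stayed on the same side of the threshold, 6 lost a call and 3 gained one, each named with its member above. Of the pairwise correlations, 14 values moved by more than the allowed spread. Gpc3 had no value in the authors' table, so that alternative was not run for it. Igf2 and Lin28b lay at the detection limit, and neither a rise nor its absence can be read there.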
